A study of Eohaustorius estuarius with 16 samples.

Results

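The transcripts described here are those that were at least 2-fold lower in whole amphipods after exposure to the pyrethroid cyfluthrin, with every exposed animal extract below the median of the controls. They were chosen by these measured values. A probe was kept where it was well above background on at least 7 of 15 arrays, where the mean log2 level of the 8 exposed arrays was lower than that of 7 control arrays by 1 or more, and where none of the 8 exposed arrays reached the control median. The rule gave 62 probes, each designed on its own assembled contig, of 7223 that passed the detection filter and 8507 on the array. Turned round, the same rule gave 67 raised probes. The level of a probe is its log2 processed signal minus the 75th percentile of its array, so that 0 marks that percentile and a difference of -1 is a 2-fold fall.

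The animals were Eohaustorius estuarius, a burrowing estuarine crustacean whose survival is a standard measure of sediment quality. Amphipods spent 10 days in sediment spiked either with solvent alone (solvent control, 8 extracts) or with cyfluthrin at a nominal 1.6 µg/kg (8 extracts). One laboratory prepared the whole-body RNA extracts, and the arrays analysed here are those of the laboratory labelled F, with 1 Cy3-labelled extract per array. The labels give neither sex, stage nor mass of the animals, nor the number of animals behind an extract, and extracts with different numbers were treated as separate samples.

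Cyfluthrin is an alpha-cyano pyrethroid. Pyrethroids bind voltage-gated sodium channels of nerve cells and delay their closing, which in arthropods leads to repetitive firing, loss of coordinated movement and paralysis. Crustaceans are among the animals most sensitive to them, and in sediment the compounds bind strongly to organic matter, which brings burrowing species into contact with them. The files pair the probes with contig numbers and with no gene names, so the lowered transcripts are given by contig and probe, and no function can be stated for any of them. In whole-body RNA, fewer cells of a type and less RNA per cell cannot be told apart. The signal of a probe also depends on its sequence, so a high or low level says where a probe lies in the range of the scanner, not how abundant its transcript is beside others.

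The arrays held 15208 non-control spots. The 75th percentile of intensity ranged from 165 to 310, and each array had 6675 to 7422 probes well above background. One array stands apart from its label and bears on every value below. The array labelled control replicate 3 had the lowest 75th percentile, a spike-in slope of 0 in its header where the other arrays had a slope near 1, and levels like those of the exposed arrays. The rule for the lowered transcripts leaves it out, so 7 controls stand behind each control mean. Leaving out a control that lies low widens the difference. The median fall, the counts of falls, calls and overlap, and the differences of the probes named by rule are also given with it. Spreads, correlations and values by slide are given without it only.

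**Figure D1:**
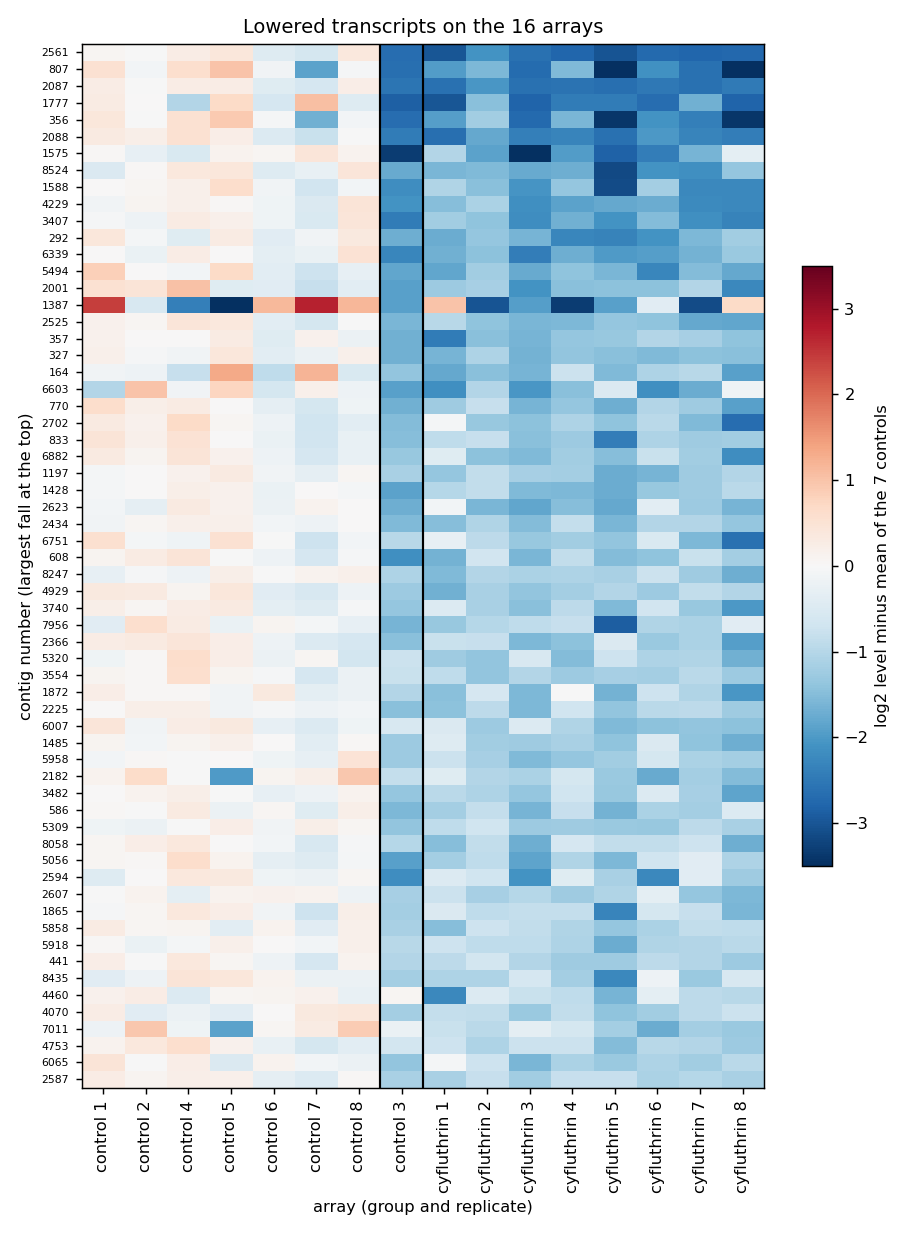
Each row is 1 of the 62 lowered transcripts, ordered by the size of its fall, and each column is 1 of the 16 arrays. Colour gives the log2 level minus the mean of the 7 controls used, and the colour scale ends before the most extreme values. The black lines frame control replicate 3, whose column is blue like those of the 8 exposed arrays.

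Most falls were close to the threshold. The 62 transcripts were 2- to 6.56-fold lower in the exposed animals, with a median of 2.31-fold, while the median difference over all 7223 tested probes was 0.012 on the log2 scale. A fall of less than 2.5-fold was measured for 40 of them, a fall between 2.5- and 4-fold for 16, and a fall of at least 4-fold for 6. These sizes follow from the choice of the transcripts and are given as a description, with no test. In the limma fit to all probes on the 15 arrays, 8.22% of tested probes were called lower at an adjusted p under 0.05, and 60 of the 62 transcripts were among them. The highest exposed array lay below the lowest control at 39 transcripts, a pattern found in that direction at 2.52% of all tested probes, and the groups overlapped at the other 23.

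With control replicate 3 kept as a control, the median fall was 2.07-fold. Under that setting 39 of the 62 transcripts kept a fall of at least 2-fold, 52 were called lower by limma where 5.18% of the probes tested on 16 arrays were, and 2 kept groups that did not overlap, as did 0.209% of those probes. The 3 largest falls were then -2.38 at contig 2561, -2.18 at contig 807 and -2.19 at contig 2087. The other contigs named by rule below had differences of -0.91 (586), -1.05 (2434), -0.88 (8435), -0.90 (1865), -1.26 (1387), -1.54 (1575), -0.86 (2587), -0.83 (6065) and -1.04 (3554), all lower in exposed animals. The probes just outside the rule, contigs 5830 and 7050, were at -0.90 and -0.95.

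The largest fall was that of contig 2561 (CUST_4125_PI425439380). Its control levels ran from 1.96 through a median of 2.63 to 2.97, and its exposed levels from -0.46 through -0.18 to 0.49. No exposed array reached the lowest control, and the 2 groups were separated by more than the range of either. The means were 2.57 ± 0.39 (SD, n = 7) in controls and -0.14 ± 0.29 (SD, n = 8) in exposed animals, a difference of -2.71 (SE 0.17) or 6.56-fold. Control replicate 3 stood at -0.08, inside the exposed range.

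Contig 2087 (CUST_4119_PI425439380) gave the tightest picture among the large falls. Its levels were 0.66, 1.49 and 1.51 in controls (lowest, median and highest) and -1.40, -1.34 and -0.80 in exposed animals. All exposed arrays lay below all controls, and 4 of the 7 controls stood at 1.49 to 1.51. The mean fell from 1.24 ± 0.37 (SD, n = 7) to -1.26 ± 0.20 (SD, n = 8), a difference of -2.51 (SE 0.15). Control replicate 3 stood at -1.32.

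Contig 807 (CUST_4066_PI425439380) fell by as much, on far more variable levels. Its controls ran from 1.5 through 3.33 to 4.38 and its exposed arrays from -0.49 through 1.01 to 1.83. The groups overlapped, because control replicate 7 at 1.5 lay below cyfluthrin replicates 2 and 4 at 1.79 and 1.83. The means were 3.37 ± 0.93 (SD, n = 7) and 0.86 ± 0.89 (SD, n = 8), a difference of -2.51 (SE 0.43).

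The other transcripts that fell at least 4-fold were contigs 1777, 356 and 2088, named here after their values were seen. Contig 1777 ran from 3.14 through 4.19 to 5.23 in controls and from 1.16 through 1.61 to 2.71 in exposed animals, with no overlap and a difference of -2.41 (SE 0.31). Contig 2088 went from a mean of 0.24 ± 0.47 (SD, n = 7) to -2.08 ± 0.29 (SD, n = 8), also with no overlap. Contig 356 fell by 2.35 with overlapping groups, and the array that overlapped was again control replicate 7, at 1.26.

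**Figure D2:**
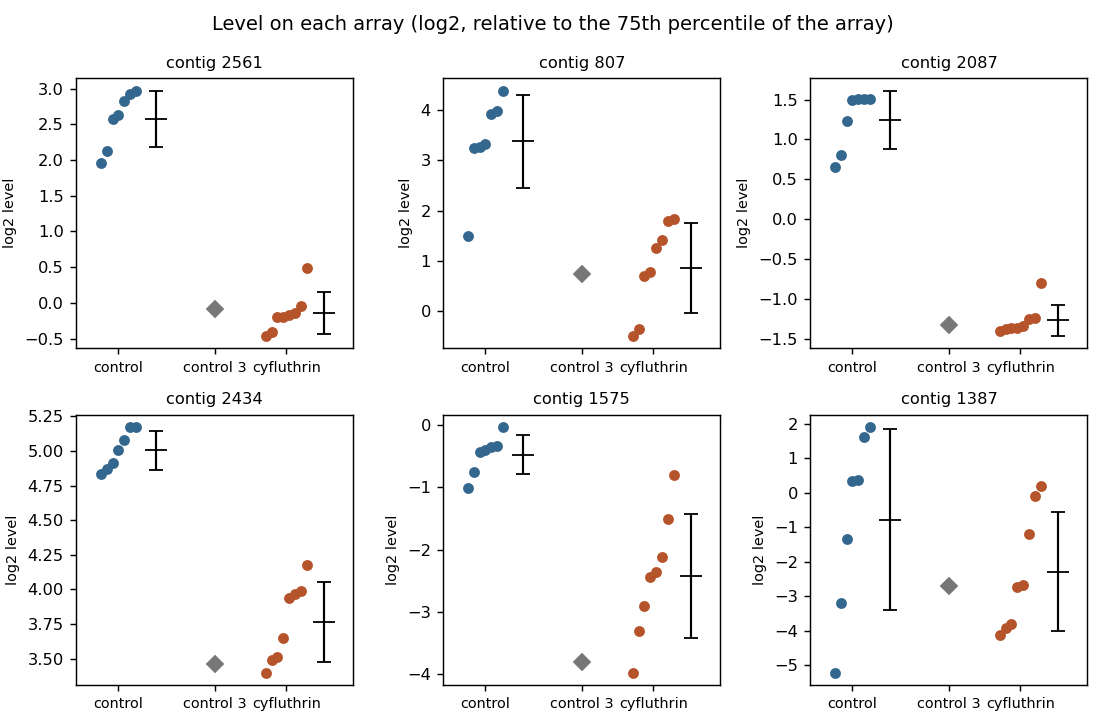
Points are the log2 levels of 6 contigs on single arrays, sorted within a group, with 7 controls on the left and 8 exposed arrays on the right; bars give the mean and SD, and the grey diamond is control replicate 3. Contigs 2561, 2087 and 2434 show groups that do not overlap, contig 807 an overlap made by 1 control, and contigs 1575 and 1387 the widest spread over the exposed arrays.

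The 2 transcripts with the highest control signal fell by amounts near the median difference of -1.21. Contig 586 (CUST_4176_PI425439775) had control levels from 5.28 through 5.75 to 6.01 and exposed levels from 4.03 through 4.55 to 5.23, so its groups came close without overlapping. Its difference was -1.11 (SE 0.17, n = 7 and 8). Contig 2434 (CUST_4377_PI425439775) was the steadier of the pair. It ran from 4.83 through 5.01 to 5.17 in controls and from 3.40 through 3.79 to 4.18 in exposed animals, a difference of -1.24 (SE 0.12) with no overlap.

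At the other end, contig 8435 (CUST_183_PI425439771) ran from -4.74 through -4.51 to -3.88 in controls and from -6.61 through -5.42 to -4.53 in exposed animals. Contig 1865 (CUST_4249_PI425439380) ran from -4.83 through -4.04 to -3.74 in controls and from -6.43 through -4.94 to -4.63 in exposed animals. Both were well above background on all 7 controls but on only 3 and 5 of the 8 exposed arrays, and in both the groups overlapped. Their differences, -1.03 (SE 0.25) and -1.05 (SE 0.24), rest on signals near the limit of detection in the exposed animals.

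The spread over the exposed arrays was widest at contigs 1387 and 1575. Contig 1387 (CUST_3196_PI425439775) ran from -5.21 through 0.34 to 1.89 in controls and from -4.11 through -2.70 to 0.20 in exposed animals. Its control levels lay both above and below all of the exposed ones, and the difference of -1.5 (SE 1.04, n = 7 and 8) is smaller than either SD, 2.62 and 1.73. It met the rule with its control median just above its highest exposed array, and it was 1 of the 2 transcripts limma did not call (adjusted p = 0.369). Contig 7011 (CUST_210_PI425439771) was the other, with an adjusted p of 0.0604 in limma.

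Contig 1575 (CUST_937_PI425439775) had steady controls and a wide spread over the exposed animals. Its controls ran from -1.01 through -0.40 to -0.04 and its exposed arrays from -3.97 through -2.40 to -0.81. A single exposed array rose above the lowest control, and the difference was -1.95 (SE 0.36, n = 7 and 8).

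The narrowest exposed spread was 0.17 (SD, n = 8), at contigs 2587 and 3554. Contig 2587 (CUST_6969_PI425439380) ran from -1.59 through -1.02 to -0.84 in controls and from -2.32 through -2.15 to -1.91 in exposed animals, without overlap. Contig 3554 (CUST_1156_PI425439380) ran from -3.21 through -2.57 to -2.04 and from -4.00 through -3.79 to -3.51, also without overlap, with a difference of -1.14 (SE 0.14).

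Contig 2587 and contig 6065 (CUST_2198_PI425439775) mark the edge of the set, with differences of -1 and -1.001. Just outside it lay contig 5830 (CUST_779_PI425439380), whose difference also rounds to -1, and contig 7050 (CUST_4019_PI425439380) at -0.997. The transcripts at the edge therefore differ from those left out by less than any of their SEs, 0.12 to 0.20. A further 66 tested probes had a mean fall of at least 2-fold and stayed out because at least 1 exposed array reached the control median.

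Across the 62 transcripts the median SD was 0.34 over the controls and 0.42 over the exposed arrays, against 0.24 and 0.28 over all tested probes. Exposed arrays varied more than the 7 controls used at 62.9% of the transcripts, a share that over all tested probes was 62.8%. The control SDs leave out control replicate 3, which lay below the lowest of the other controls at 58 of the 62 transcripts. They were not computed with it, so which group varied more with all 8 controls is not given. Spot noise was small beside these SDs. The 45 transcripts with 2 spots had a median SD between spots of 0.06, and at 42 of them each spot alone gave a fall of at least 2-fold. The largest disagreement between the falls from 2 spots of a probe was 0.30.

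The lowered transcripts were well above background on all 15 arrays at 53 of 62 (85.5%, against 85.4% of tested probes), so this share did not set them apart. The gaps in detection lay mostly in the exposed group, with 61 of 62 well above background on all 7 controls and 8 on only some of the exposed arrays. Control signals were higher than on the array at large. The control mean lay above the 75th percentile at 54.8% of the transcripts, against 29.3% of tested probes. The rule asks for levels that are lower in the exposed group, so this share and the gaps in detection partly follow from the choice. Both are descriptions, with no test. None of the 62 transcripts was undetected in a whole group, so no fold is given as a bound.

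The size of a fall depended on how weak signals were treated. An offset of 50, added to each processed signal ahead of the log2, shrinks differences between weak signals by arithmetic, so the values below give the amount and do not test the falls. It left all 62 transcripts lower but reduced the median fall from 2.31- to 1.93-fold and left 28 at 2-fold or more. The 34 transcripts whose control mean lay above the 75th percentile of the array went from a median of 2.40- to 2.34-fold, and 26 of them stayed at 2-fold. The 28 below it went from 2.24- to 1.45-fold, and 2 stayed at 2-fold. The median difference of all tested probes was 0.086 with the offset and 0.012 without it. Contig 8435 shows the extreme, with a difference of -0.01 after the offset, while contig 586 went from -1.11 to -1.14. Contigs 1865, 6065, 3554, 2587 and 1575 also shrank, to differences of -0.04, -0.24, -0.32, -0.59 and -1.16.

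**Figure D3:**
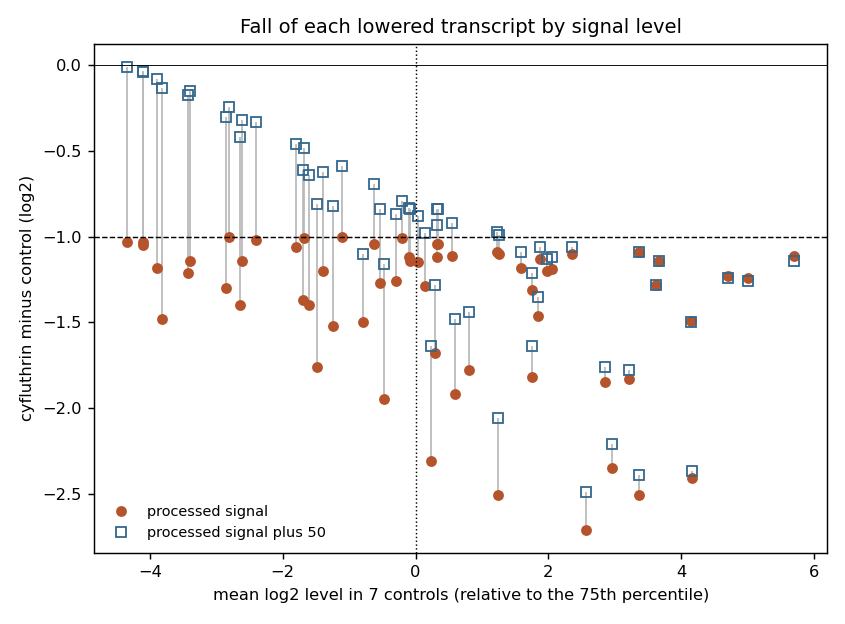
Each transcript is drawn at its mean log2 level in the 7 controls (horizontal axis) and its difference between exposed and control arrays (vertical axis, log2), from the processed signal (filled) and from the signal plus 50 (open), with a line joining both. The dashed line marks a 2-fold fall, which 2 of the 28 transcripts left of the dotted line still reach after the offset, and 26 of the 34 to its right.

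Normexp background correction, which carries the same offset, gave a median of 1.87-fold with 25 transcripts at 2-fold or more and all 62 lower. In the authors' deposited table all 62 were lower too, by 1.98- to 6.33-fold with a median of 2.25.

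The 16 arrays were hybridised on 2 slides, each with 4 arrays of each group. Slide 1 held replicates 1, 4, 6 and 7 of both groups, and slide 2 the other replicates, so that with control replicate 3 left out slide 2 had 3 controls. All 62 transcripts were lower in exposed animals on both slides. On slide 1 the median difference was -1.09 (range -2.62 to -0.57) with 42 transcripts at 2-fold or more, and on slide 2 it was -1.45 (range -3.25 to -0.27) with 55. A fall of at least 2-fold within each slide was met by 35 transcripts, where 0.914% of all tested probes met it; since both slides entered the rule, nothing is read from this.

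The slide itself was not named in the rule. The rule used the same arrays, though, and its condition on single arrays works against transcripts that differ strongly between slides. The counts by slide are therefore a description. In a limma fit with group and slide, 0 of the 62 transcripts differed between slides at an adjusted p under 0.05, where 0.277% of tested probes did. With so few probes called at large, this count does not set the transcripts apart. At an unadjusted p under 0.05 there were 2, while 5.32% of tested probes passed that limit. The interaction of exposure and slide was called at 0 transcripts and at 0% of tested probes. At an unadjusted p under 0.05 for the interaction there were 5 of the 62 transcripts, a larger share than the 1.91% of tested probes. The median shift from slide 1 to slide 2 was 0.09 in controls, with 17 transcripts lower on slide 2, and -0.14 in exposed animals, with 45 lower. With control replicate 3 left out, a difference in the size of the fall between the slides was thus visible in the medians but was not called at any single transcript. That array lies on slide 2, with a mean of -1.29 over the transcripts, where the other controls of that slide stood at 0.28 to 0.33. Keeping it would lower the control mean of slide 2. The medians by slide were not computed with it, so which slide had the larger fall with all 8 controls is not given. With all 16 arrays the interaction was also called at 0 transcripts.

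Control replicate 3 was not used to choose the transcripts, but it was left out with its levels known, so they are described with no test. It lay below the lowest of the other 7 controls at 58 of the 62 transcripts, where 16.9% of all tested probes did so. Its mean over the transcripts was -1.29, between the exposed means of -1.45 to -0.90 and away from the other controls at 0.01 to 0.40. At 52 transcripts it fell inside the exposed range, at 6 below it and at 4 above it. Its distance from the other controls was a median 114% of the exposure difference, with a range from -7.6% to 200%.

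**Figure D4:**
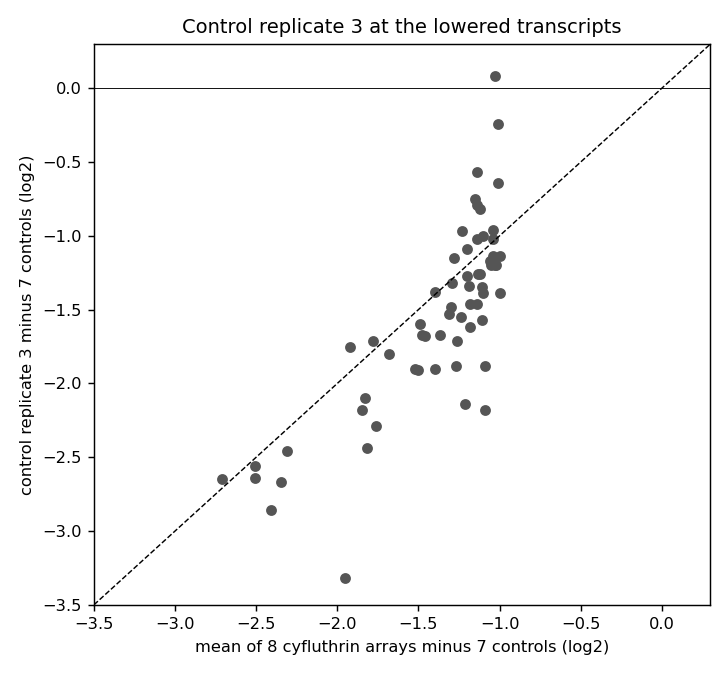
Each point is 1 of the 62 lowered transcripts, with the mean difference between the exposed arrays and the 7 controls on the horizontal axis and the difference between control replicate 3 and the same controls on the vertical axis, both on the log2 scale. Most points lie near the dashed line of equal values, and the point above 0 is contig 4460.

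The 4 transcripts at which control replicate 3 did not lie below the other controls were contigs 1387, 2182, 4460 and 7011, named after their values were seen. At contig 4460 it stood at -4.02, the same value as control replicate 5, while the exposed arrays ran from -6.35 through -5.01 to -4.43. At contigs 2182 and 7011 the lowest control was replicate 5, far below the other controls at -1.68 and -2.09. Contig 1387 had controls on either side of it.

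Among the 120 pairs of the 16 arrays, control replicate 3 and cyfluthrin replicate 3 were the closest over the 62 transcripts. Their median absolute difference was 0.11, while the next closest pair, control replicates 1 and 5, differed by 0.21. The largest difference of the close pair at any transcript was 0.85. For 21 transcripts cyfluthrin replicate 3 was the exposed array nearest to control replicate 3, and no other exposed array was nearest at more than 7. Both arrays lie on slide 2. Whether the 2 arrays share an extract was not tested. Without cyfluthrin replicate 3 the rule gave 63 transcripts, 57 of them among the 62.

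The depth of the fall differed between the exposed arrays. Averaged over the transcripts, cyfluthrin replicate 5 was lowest at -1.45 and replicates 1 and 2 were highest at -0.95 and -0.90. Cyfluthrin replicate 8 was the lowest exposed array at 20 transcripts and replicate 5 at 17, while replicates 1 and 2 were each the highest at 16. Among controls, replicate 7 was the lowest of the 7 at 35 transcripts, with a mean of 0.01, and replicate 4 the highest at 23. The exposed array with the highest mean was below the lowest of these 7 controls. The transcripts were chosen on the same arrays for lower exposed levels. This order therefore partly follows from the choice and is a description, with no test. It does not hold for control replicate 3, whose mean of -1.29 lay below the highest exposed mean of -0.90.

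Correlation within the groups was low for most pairs of transcripts. After the mean of each group was removed, the median Pearson r over the 1891 pairs of transcripts was 0.19 on 15 arrays, against 0.03 over all pairs of tested probes, and all of these values share the scaling of their arrays. An r above 0.8 was found at 1.64% of the pairs, against 0.666% among all tested probes. The first component of the unscaled deviations carried 59.6% of the variance over the controls and 30.6% over the exposed arrays. Contig 1387, with its scattered levels, weighed heavily in this, and without it the shares were 46.6% and 36.3%. These are descriptions of transcripts chosen on the same arrays, with no test.

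Of the pairs, 6 exceeded an r of 0.9, and they linked 10 transcripts into 4 small groups, named here for that value. Contigs 807 and 356 moved together most closely, with r = 0.99 and Spearman's rho = 0.96 on 15 arrays, and r = 0.98 without the 2 arrays farthest from the median. Both were lowest in cyfluthrin replicate 8 (-0.49 and -0.46) and next lowest in replicate 5 (-0.35 and -0.45). Contigs 2561 and 2087, 2 of the 3 largest falls, had r = 0.94 and rho = 0.89, and r = 0.88 without the 2 farthest arrays. The exposed array that departed from the rest was cyfluthrin replicate 2 at both, at 0.49 and -0.80.

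Contigs 2702, 6882, 3740 and 1485 formed the largest of these groups, with pairwise r from 0.84 to 0.96. All 4 were highest among the exposed animals in cyfluthrin replicate 1, at 1.68, -0.30, 1.57 and 1.44, and lowest in replicate 8, at -0.92, -2.05, 0.05 and 0.17. In control replicate 7, the lowest control for all 4, the levels were 1.07, -0.45, 1.60 and 1.51. Cyfluthrin replicate 1 therefore reached the lowest control at contigs 2702 and 6882 and stayed below it at the other 2.

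Contigs 2182 and 7011 had r = 0.93 and rho = 0.84, and r = 0.79 without the 2 farthest arrays, 1 of which was control replicate 5. At both, that control lay below every exposed array.

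The numbers in the probe names are those of 3 probe sets. The lowered transcripts made up 33 of 3062 tested probes (1.08%) in the set PI425439380, 18 of 2142 (0.84%) in PI425439775 and 11 of 2019 (0.545%) in PI425439771. What the order of the numbers stands for is not given in the sources used here. The tested probe with the nearest number was itself a lowered transcript for 8 of the 62 (12.9%), where lowered transcripts are 0.858% of tested probes, and all 8 were in PI425439380. The mirrored set of raised transcripts had 5 of 67 such neighbours.

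A dense stretch lay between numbers 4066 and 4152 of that set, picked as the fullest window of 100 numbers after the values were seen. It held 9 of the 62 lowered transcripts among 38 tested probes, and the next fullest window without overlap held 4. Of the 6 transcripts that fell at least 4-fold, 5 were in it (contigs 807, 356, 2087, 2088 and 2561). The same stretch held 4 transcripts of the raised set, among them contigs 4735, 4879 and 5659, which rose 12.6-, 12.3- and 11.9-fold at numbers 4102, 4103 and 4105. Of its 38 tested probes, 22 had differences of less than 0.5 in size on the log2 scale.

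Contigs 2086, 2087, 2088 and 2089 carry probe numbers 4118, 4119, 4121 and 4123, and their differences were -0.25, -2.51, -2.31 and -0.15. Contigs 2087 and 2088 fell 5.69- and 4.97-fold, with r = 0.89 between them over the 15 arrays, while their numbered neighbours on both sides stayed within 1.19-fold. Neighbouring numbers in this set also varied together slightly more than distant ones over all tested probes, with a median r of 0.12 for the next number and 0.05 for probes 200 numbers apart.

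**Figure D5:**
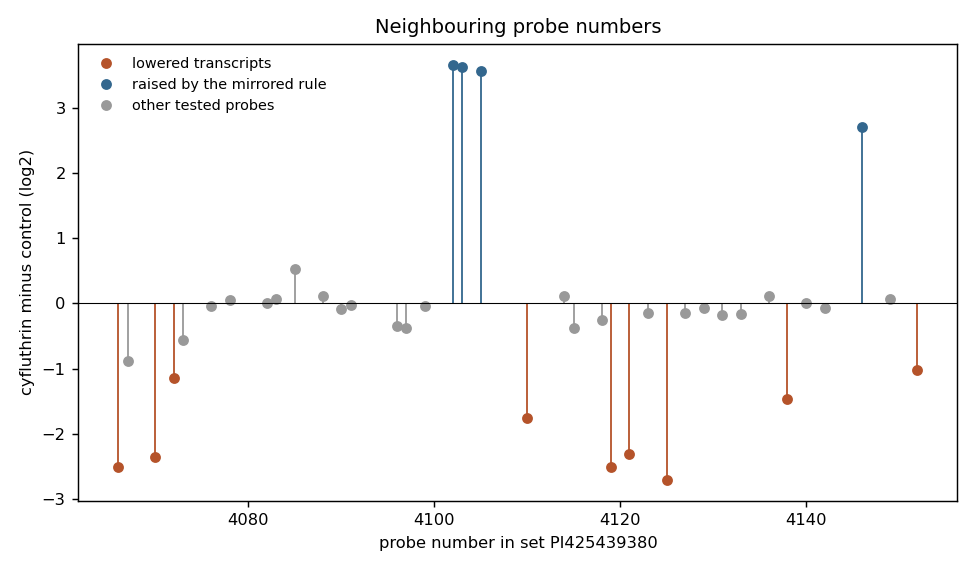
Tested probes numbered 4066 to 4152 in the set PI425439380 are placed by number on the horizontal axis, with the mean of 8 exposed arrays minus that of 7 controls on the vertical axis (log2). The 9 lowered transcripts and the 4 raised ones stand among other tested probes with differences from -0.89 to 0.52.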

How the data were processed

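RNA of 16 whole-body extracts was measured on 1-colour arrays. The deposited scanner files hold spot intensity, background-subtracted and detrended but not scaled between arrays per the file headers, which name Feature Extraction 11.5.1.1; the submitters' processing notes name version 9.1. A second table holds log2 values deposited by the authors. Its scale is not described in the sources used here, and it was matched by quantile-normalised, probe-centred log2 intensity (r 0.9998 to 1.0000 per array), which settled scale, centring and direction. The column medians of the deposited values were -0.0048, -0.015, 0.0044, 0.0016, 0.043, -0.035, -0.0065 and -0.021 for controls 1 to 8 and -0.0079, 0.021, 0.0062, 0.034, 0.011, -0.017, 0.036 and -0.03 for cyfluthrin 1 to 8.

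From the intensity, 336 outlier spots were dropped, the log2 was taken, the 75th percentile over non-control spots subtracted and spots averaged per probe. A probe was well above background where at least 50% of its spots were so marked. No spot was saturated. Fits used limma 3.58.1 in R 4.3.3 (two-sided moderated tests from lmFit and eBayes), and p-values were adjusted by Benjamini-Hochberg over all tested probes at a threshold of 0.05. The fit was also run on simulated levels with independent noise at each probe and array. That setting leaves out the correlation between probes, so it does not check the p-values given here. The p-values measure the spread between these extracts, and the number of arrays limits precision.

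The transcripts, lists and rules were chosen with earlier results of these data known. The rule for naming took the 3 largest and 2 smallest falls, the 2 highest and 2 lowest control levels, the 2 widest and 2 narrowest exposed spreads and the 2 probes just outside. The gene lists could not be used, since the probes carry no gene names. Alternatives covered arrays, slides, blocks, scaling, background, filters, weights and thresholds, and taking the percentile before dropping outlier spots was added after seeing the data.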

Additional observations from a re-analysis of the deposited data

Results flagged for a closer look

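In a screen of the 14 named probes and of the mean over the 62 transcripts, within each group, 8 arrays in 30 sets stood far from the rest of their group. Chance flags about 5% of independent sets, a rate that is no reference here, since the probes were picked for extreme values and share their arrays. Of these, 6 are control replicate 3. Averaged over the transcripts it stood at -1.29, with the nearest control at 0.01. It was also far from the other controls at contig 2561 (CUST_4125_PI425439380) with -0.08 against 1.96, at contig 2087 (CUST_4119_PI425439380) with -1.32 against 0.66, and at contig 1575 (CUST_937_PI425439775) with -3.80 against -1.01. At contigs 586 (CUST_4176_PI425439775) and 2434 (CUST_4377_PI425439775), named for their high control signal, it stood at 4.13 and 3.46, where the nearest controls were at 5.28 and 4.83. The same array has a header spike-in slope of 0, and the part of that in its levels was not tested.

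Cyfluthrin replicate 2 was the other far array. At contig 2561 it stood at 0.49, with the nearest exposed array at -0.04, and at contig 2087 at -0.80, with the nearest at -1.24. Both times it was the exposed array with the least fall and still below every control used.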

How the results depend on the processing

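The number of transcripts found, 62, became 38 with all 16 arrays (37 of them among the 62), 24 with normexp and 28 with an offset of 50. Slide 1 alone gave 90, with 42 of them among the 62, and slide 2 alone gave 127, with 55 among the 62. Most or many of those found on a single slide were thus outside the set. The number found was 107, 32 and 16 at differences of -0.8, -1.2 and -1.5, and 128 with no condition on single arrays. Leaving out 1 array at a time gave 59 to 85. Transcripts without overlap went from 39 to 2 with all 16 arrays and ranged from 39 to 46 without single arrays, where 0.209% and 2.58% to 3.27% of tested probes did not overlap. Leaving out an array can only keep or raise such a count, so stability cannot be read from the range without single arrays. Tested probes called lower by limma, 594, became 372 with all 16 arrays, 66 and 105 on slides 1 and 2 alone, 325 with normexp and 309 at an adjusted p under 0.01, and 487 to 634 without single arrays. Of the transcripts, 24 and 39 were called on slides 1 and 2 alone, beside 66 and 105 of all tested probes. Without single arrays 59 to 61 were called, beside 487 to 634. The rule used the same contrast on these arrays, so the calls of the transcripts are a description, with no test. Taking the percentile over all spots, chosen after seeing the data, gave 59 transcripts. Of the differences of named probes under alternatives, 0 changed sign, 17 moved by more than 1 SD and 361 did not.

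When the replicate number entered as a block, 414 tested probes and 59 transcripts were called lower. Whether the numbers pair the samples is not stated in the sources used here, and they were not taken as pairs. The deviations of same-numbered arrays correlated above 0.1 in 4 of 7 pairs (r from -0.18 to 0.49). The median r for arrays of different number was -0.07, and the own number was the best match for 4 of 14 arrays. Same-numbered arrays also share a slide, so these values cannot decide whether the numbers are pairs.

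The limits are those of signal near background, where falls depend on the offset, and of 1 control array that lies with the exposed ones.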
